A study of Mus musculus with 4 samples.

Results

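The SLAM (signalling lymphocytic activation molecule) family was followed through 7 genes, the 6 receptor genes Slamf1, Slamf6, Slamf7, Ly9, Cd84 and Cd48 and the adaptor gene Sh2d1a, which encodes SAP. They were taken by symbol from the 55536 genes of the GENCODE M21 annotation used in the deposited tables, and each symbol matched 1 gene. The RNA was polyadenylated RNA of inflammation-experienced regulatory T cells (Treg), CD4 T cells that restrain immune responses, in 4 sequencing libraries. The cells were primary cells of an adult male mouse aged 6 months, of the strain Foxp3CreERT2 x Rosa26YFP, and the labels trace them to haematopoietic cells of the bone marrow. In mice of this kind the Foxp3 gene drives a Cre recombinase that a drug can switch on, so that Cre is limited to cells that express Foxp3, and a fluorescent reporter sits in Rosa26. What the inflammation was is not given in the labels used here. Libraries 1 to 4 bear the labels' technical replicate numbers, and all come from biological replicate 1. There was therefore 1 group and no condition to compare. Every SD below measures the spread between libraries, which may be technical. The p-values for differences between libraries compare those differences with counting error alone. No SD or p-value below says anything of other mice.

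SLAM receptors sit on lymphocytes and other blood cells, and most of them bind the same molecule on a neighbouring cell. Inside the cell their tails carry tyrosines in a short stretch called the immunoreceptor tyrosine-based switch motif, to which the small adaptor SAP binds. SAP brings in the kinase Fyn, and without SAP the same motifs bind inhibitory phosphatases. In T cells the family is known for helping T cells stay in contact with B cells and for the development of natural killer T cells, and in humans loss of SAP causes X-linked lymphoproliferative disease.

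The libraries held 9284432, 9341328, 9325636 and 6648385 expected counts over genes, and 13366 to 13867 genes reached 1 TPM (the deposited level, scaled for transcript length and library total). Libraries 3 and 4 were the closest pair. Between them 20.6% of genes differed beyond counting error, against 39.6% to 44.3% for the other 5 pairs. All 6 Treg markers and all 8 T cell markers examined reached 10 TPM in every library, with Foxp3, the defining transcription factor, at 27.8 ± 8.01 TPM (SD, n = 4). B cell markers were also present: 8 of 10 reached 1 TPM in all libraries, 1 of 10 reached 10 TPM in all, and none was at 0. Their summed level was 225.76, 147.32, 98.18 and 175.18 TPM in libraries 1 to 4. Of these sums Cd79b alone held 88.48, 81.13, 57.62 and 89.26 TPM. Summed markers of red cells and platelets stood at 1067.76 TPM in library 1, against 5.39 to 39.3 TPM in the other 3. B cells, plasma cells and myeloid cells also express SLAM receptors, and the share of each member's RNA that came from such cells was not tested. In RNA of a bulk population, fewer cells of a type and less RNA per cell cannot be told apart.

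The sequence that ties these receptors to SAP was read from the coding sequences of GENCODE M21 transcripts. The switch motif, here a threonine, any residue, a tyrosine, any pair of residues and then a valine or isoleucine, takes 18 bases. It is printed below for each receptor gene among the members that holds it, 5′ to 3′ on the gene's own strand. The codons of threonine, tyrosine and valine or isoleucine are in capitals, with mm10 coordinates beside each site.
Slamf1 motif 1, chr1:171792339-171792356, plus strand: ACTattTATgcccaaGTA
Slamf1 motif 2, chr1:171799588-171799605, plus strand: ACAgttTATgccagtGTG
Slamf6 motif 1, chr1:171939437-171939454, plus strand: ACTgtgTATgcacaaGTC
Slamf6 motif 2, chr1:171941664-171941681, plus strand: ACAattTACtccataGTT
Cd84 motif 1, chr1:171884605-171884622, plus strand: ACAgtaTATgctgtaGTT
Cd84 motif 2, chr1:171885601-171885618, plus strand: ACCattTATtcctcaGTG
Ly9 motif 1, chr1:171593912-171593929, minus strand: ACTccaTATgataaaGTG
Ly9 motif 2, chr1:171593438-171593455, minus strand: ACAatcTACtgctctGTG
Slamf7 motif, chr1:171636327-171636344, minus strand: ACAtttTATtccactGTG
Cd48 match, chr1:171695903-171695920, plus strand: ACCtacTACatgagaGTG

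Slamf1, Slamf6, Cd84 and Ly9 each held 2 motifs, Slamf7 held 1, in at least 1 coding transcript, and no coding transcript of Sh2d1a held any. Cd48 matched once, but CD48 is held in the membrane by a lipid anchor and has no tail inside the cell, so this is a match of letters alone. Among 21901 protein-coding genes, 7.95% held at least 1 such match in some transcript and 0.607% held at least 2. Matches were also found in coding sequences of the related receptor genes Cd244a and Slamf8, and are not printed. A match describes the sequence and does not show that SAP binds there.

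All 7 genes were expressed. Mean levels ran from 401 ± 46.6 TPM for Cd48 down to 10.2 ± 1.85 TPM for Slamf7 (SD, n = 4), and the median of the 7 was 194 TPM. The median of the 10552 protein-coding genes with a mean of at least 1 TPM was 18.02 TPM. By that yardstick 6 members stood above the median, with Cd48 at rank 272 from the top, Sh2d1a at 360, Slamf6 at 396, Cd84 at 603, Ly9 at 1372 and Slamf1 at 2162. Slamf7 stood below it, at rank 6811. The plot of levels by library shows the 7 genes beside 4 relatives that were close to 0.

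**Figure D1:**
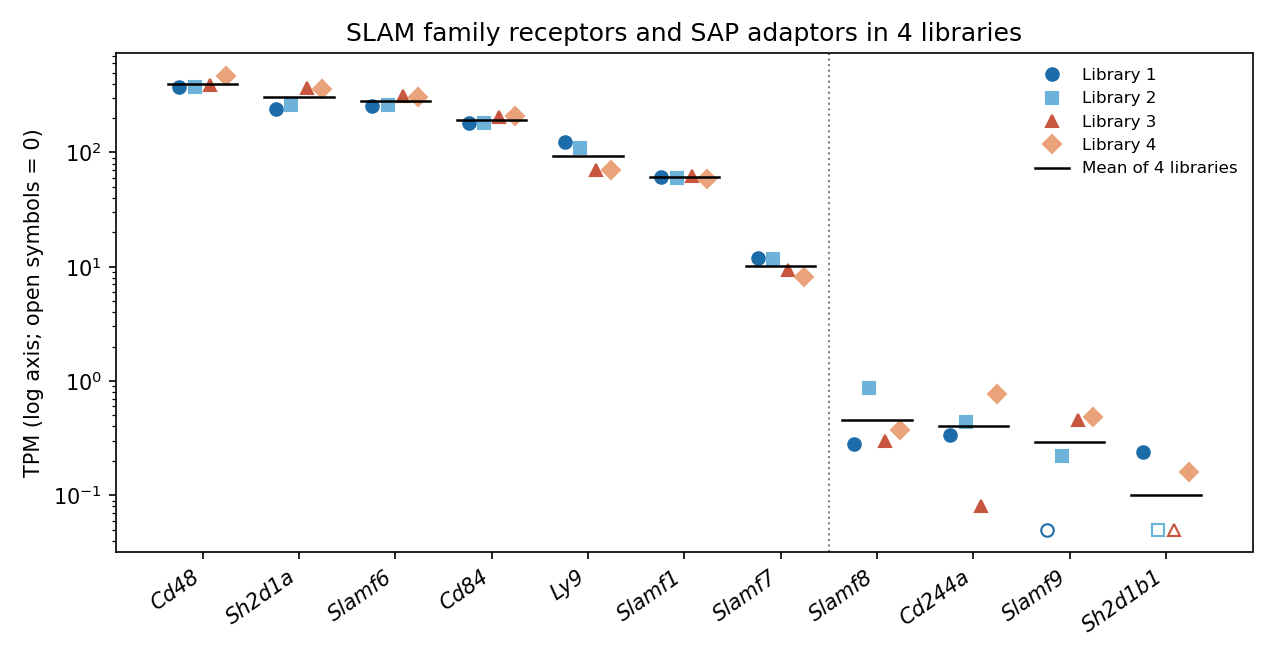
TPM (log axis) of the 7 SLAM family genes, left of the dotted line, and of 4 related genes, right of it, in libraries 1 to 4; black bars are means over the 4 libraries and open symbols stand for 0. The 7 genes lie between 8.08 and 469.24 TPM and the related genes at or below 0.87 TPM; Sh2d1b2, at 0 in all 4 libraries, is not drawn.

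The 6 receptor genes lie together on chromosome 1, over 364.5 kb of mm10. In order along the chromosome they are Ly9 (ENSMUSG00000004707.14, 171588624 to 171607410, minus strand), Slamf7 (ENSMUSG00000038179.13, 171632403 to 171653035, minus strand), Cd48 (ENSMUSG00000015355.13, 171682009 to 171705258, plus strand), Slamf1 (ENSMUSG00000015316.11, 171767127 to 171801184, plus strand), Cd84 (ENSMUSG00000038147.13, 171839697 to 171890718, plus strand) and Slamf6 (ENSMUSG00000015314.10, 171917515 to 171953170, plus strand). Neighbours differed widely in level: Slamf7, the lowest, lies between Ly9 at 93.3 TPM and Cd48, the highest. Cd244a overlaps Ly9 on the opposite strand with no shared exon bases, and it had only 1 to 6 expected counts a library. Slamf7 shares 423 exon bases with the antisense gene Gm37787, which had at most 2.55 counts. On the strand of Cd48 lies Gm37010, with 167 to 193 counts and no shared exon bases, and opposite Slamf6 lies Gm37065, with 11 to 25 counts and none shared. Sh2d1a (ENSMUSG00000005696.11) lies apart, on the X chromosome at 42502453 to 42529330, plus strand. It shares 1465 exon bases with Tenm1 on the opposite strand, which had 1.04 to 8.36 counts. The strand setting of the counting is not given in the sources used here, so reads from the overlaps cannot be assigned to a strand.

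**Figure D2:**
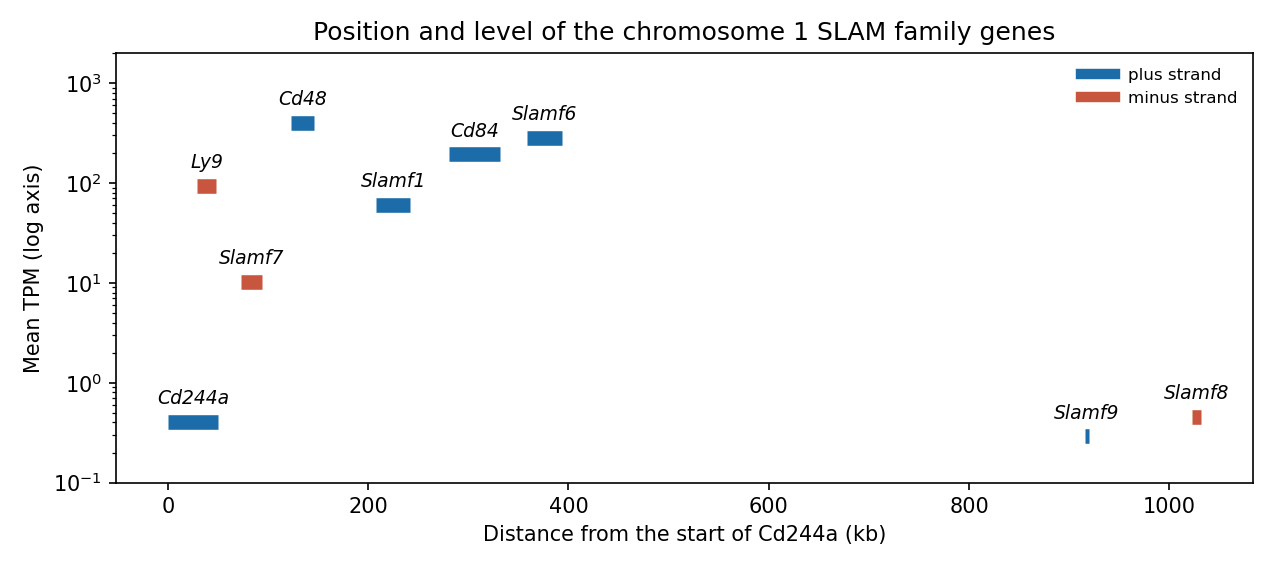
Mean TPM over 4 libraries (log axis) of the SLAM family genes of chromosome 1 against distance in kb from the start of Cd244a; each bar spans the gene and its colour gives the strand. The 6 receptor genes described here lie within 364.5 kb at 10.2 to 401 TPM, while Cd244a beside them and Slamf9 and Slamf8 farther along stand at 0.290 to 0.455 TPM.

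Slamf1 encodes the founding receptor of the family, which binds itself and costimulates T cells. Its level was 60.48, 59.88, 62.76 and 58.30 TPM in libraries 1 to 4, from 876 to 1307 expected counts. These were the most even values of the family, with the highest library 1.13 times the lowest after scaling of library sizes. This ratio is of counts scaled for library size, not of TPM, as are the ratios between libraries given for the other members. The difference between libraries had an adjusted p of 0.0183 in edgeR's likelihood ratio test at Poisson error, adjusted over all 13045 genes tested. The call was lost without library 1, 2 or 4 in turn, with adjusted p of 0.0669, 0.224 and 0.0525, and in the table made from the reads, at 0.0508.

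Slamf6, known as Ly108 in mice and also its own ligand, stood at 252.62, 262.25, 308.95 and 306.55 TPM. Libraries 3 and 4 were the higher ones, and the highest library was 1.30 times the lowest in scaled counts (adjusted p 3.66e-25, edgeR likelihood ratio test). Cd84, a self-binding receptor of T cell and B cell contacts, had the same high libraries at a smaller range, with 181.15, 181.29, 203.33 and 208.88 TPM, a ratio of 1.18 and an adjusted p of 4.88e-09 (edgeR). Both genes rest on 2646 or more expected counts in every library.

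Ly9, which encodes the self-binding receptor CD229, ran the other way. It had 123.39, 110.02, 69.86 and 69.79 TPM in libraries 1 to 4, from 1965, 1953, 1220 and 859 expected counts. Libraries 1 and 2 were high and libraries 3 and 4 low, with a wide gap between them. This was the widest range of the 7, a ratio of 1.76 (adjusted p 1.11e-93, edgeR likelihood ratio test), and the adjusted p was at most 8.40e-53 with any 1 library left out. The summed B cell markers were 225.76, 147.32, 98.18 and 175.18 TPM in the same libraries, and their part in the level of Ly9 was not tested.

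Slamf7, a receptor of natural killer cells and plasma cells that also binds itself, was the lowest member, at 11.91, 11.64, 9.33 and 8.08 TPM. Libraries 1 and 2 were again the higher ones, but the gene rests on 144.61, 114.45, 114 and 74 expected counts. The ratio of 1.49 had an adjusted p of 0.0285 (edgeR), which rose to 0.564 without library 1 and 0.0547 without library 4. The adjusted p was 0.0833 with library totals in place of scaled sizes, and 0.0703 in the deposited counts on the older M4 annotation (edgeR). Plasma cell markers summed to 87.87, 42.1, 81.74 and 48.62 TPM in libraries 1 to 4, and natural killer cell markers to 13.9, 11.7, 5.47 and 7.03 TPM. Of 7 natural killer cell markers only Prf1, a gene of cytotoxic granules that T cells also use, reached 1 TPM in all libraries. The part of these cells in the level of Slamf7 was not tested.

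Cd48 encodes a lipid-anchored ligand of the receptors CD2 and CD244. Its level was 370.28, 372.54, 390.73 and 469.24 TPM, similar in libraries 1 to 3 and highest in library 4, which was the shallowest. The ratio of highest to lowest library was 1.27 (adjusted p 2.97e-17, edgeR). Of its partner genes, Cd2 stood at 1217 ± 83.1 TPM and Cd244a at 0.408 ± 0.285 TPM (SD, n = 4).

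Sh2d1a, the SAP adaptor, had 238.46, 257.97, 365.40 and 355.80 TPM, from 1269, 1536, 2132 and 1470 expected counts. Libraries 3 and 4 were the higher ones, as for Slamf6, Cd84 and Cd48, and the reverse of Ly9 and Slamf7. How common such a split is among all genes was not counted. The ratio was 1.56 (adjusted p 5.55e-42, edgeR likelihood ratio test), and the adjusted p was at most 3.54e-12 with any 1 library left out. Of the receptor genes, Cd48 had a higher mean than the adaptor and the other 5 a lower one, of which Slamf6 was close to it.

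All 7 genes differed between libraries beyond counting error at an adjusted p under 0.05. So did 68.4% of the 13045 genes tested, 8925 in all, so a call in most members is close to the background of these libraries. With a ratio of at least 1.5 also required, Ly9 and Sh2d1a were called, 2 of 7, against 37.9% of all genes. In the table made from the reads 6 of the 7 were called, beside 62.4% of 17357 genes, and in the M4 counts 6 of 7, beside 78.4% of 10910 genes. The biological coefficient of variation of edgeR takes out counting error, and its value for each gene is drawn toward those of other genes. It was 13.9% for Slamf1, 14.0% for Cd84, 14.6% for Cd48, 14.8% for Slamf6, 17.8% for Sh2d1a, 21.1% for Slamf7 and 22.4% for Ly9. The median over all genes tested was 20.3%, so 5 members lay below it and 2 above. Ly9 was below the median of all genes without library 3, at 20.04% against 21.6%, and without library 4, at 20.1% against 21.3%.

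The order of levels was Cd48, Sh2d1a, Slamf6, Cd84, Ly9, Slamf1 and Slamf7. Neighbours in that order were compared as log2 ratios of TPM + 0.1 within each library. Slamf6 exceeded Cd84 by 0.54 ± 0.05, Cd84 exceeded Ly9 by 1.10 ± 0.54 and Slamf1 exceeded Slamf7 by 2.57 ± 0.26 (mean ± SD, n = 4), each more than 2 SD from 0. Cd84 over Ly9 passed that mark only narrowly, and without library 4 the pairs beyond it went from 3 to 2. Cd48 over Sh2d1a, at 0.42 ± 0.23, and Ly9 over Slamf1, at 0.58 ± 0.44, were positive in 4 of 4 libraries but lay within 2 SD. Cd48 over Sh2d1a was 0.23 ± 0.23 in the table made from the reads, where Sh2d1a was the higher in library 3. In the M21 levels Sh2d1a and Slamf6 were not separable, at 0.09 ± 0.16, with Sh2d1a the higher in 2 of 4 libraries. In both other tables Sh2d1a was the higher in 4 of 4 libraries, by 0.27 ± 0.15 in the table made from the reads and 0.29 ± 0.20 in the M4 counts. An exact two-sided sign-flip permutation test of the M21 levels gave p = 0.5 for that pair and 0.125 for each of the other 5, adjusted 0.15, and 0.125 is the smallest p that 4 libraries allow. All these levels are of whole genes. Over protein-coding transcripts alone, Slamf6 stood at 199 ± 19.8 TPM and Cd84 at 193 ± 14.9 TPM (SD, n = 4), with Cd84 the higher in library 2. Sh2d1a, at 292 ± 61.0 TPM, was then above Slamf6 in 4 of 4 libraries.

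The libraries were also quantified by the authors in other ways, and the members' levels moved with the table. In the deposited table made directly from the reads, the log2 ratio to the M21 level was -0.76 for Sh2d1a to -1.11 for Ly9, beside a median of -0.81 over 12665 genes. Its order was the same on average, with Cd48 at 208 TPM and Slamf7 at 5.57 TPM. In the deposited whole-number counts on the older GENCODE M4 annotation, scaled here by length to the same total, Cd84 stood at 122 ± 8.01 and Ly9 at 132 ± 32.8, against 194 ± 14.5 and 93.3 ± 27.6 TPM in the M21 table (SD, n = 4). Ly9 had a mean of 2460.5 M4 counts and 1499 M21 expected counts, and Cd84 2353.5 and 3210. The ratio of Cd84 to Ly9 was then -0.082 ± 0.46 on the log2 scale, so the M4 counts did not separate them. In those counts Ly9 was the higher in libraries 1 and 2, and Cd84 in libraries 3 and 4. The direction of the difference between libraries 1 and 2 and libraries 3 and 4 was the same in all 3 tables for Ly9 and for Sh2d1a.

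**Figure D3:**
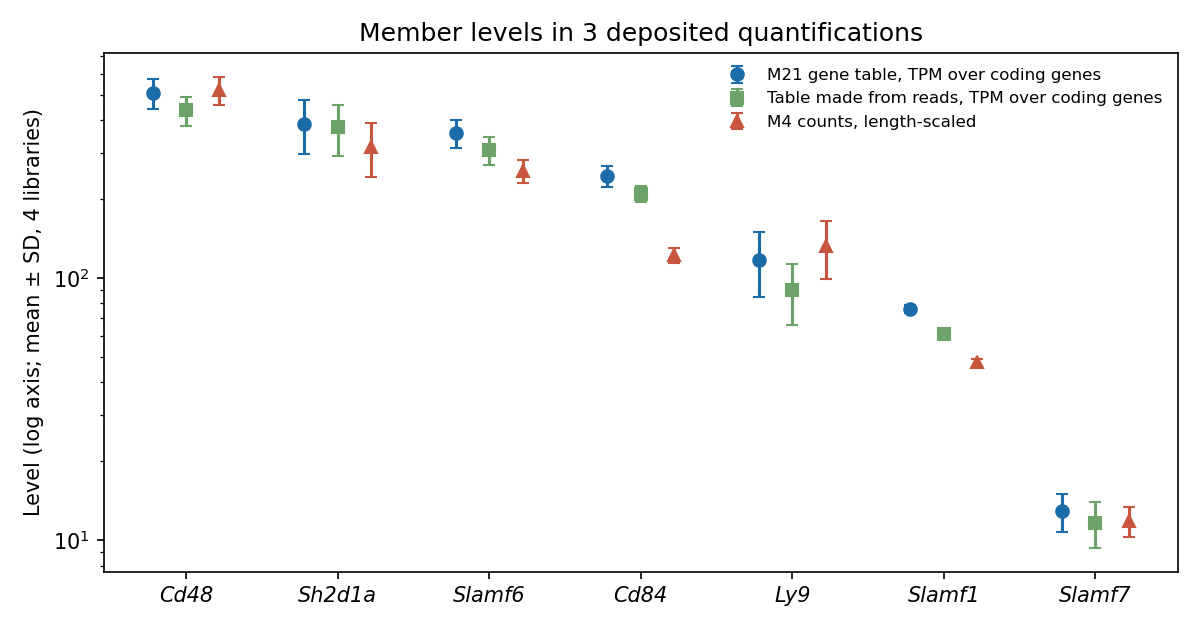
Levels of the 7 genes (log axis, mean ± SD over 4 libraries) in 3 deposited quantifications: TPM of the M21 gene table over coding genes, TPM of the table made from the reads over coding genes, and M4 counts scaled by length. The M4 counts are scaled to a total over all matched genes, so their heights are not on the scale of the other points. On average Cd84 and Ly9 change places in the M4 counts, at 122 and 132, though Cd84 is the higher in libraries 3 and 4. By mean level Cd48 stays highest and Slamf7 lowest in all 3.

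Transcripts within each gene were described as shares of the gene's TPM. In 4 genes 1 protein-coding transcript held most of the level: Cd48-202 at 99.0 ± 0.77%, Sh2d1a-201 at 90.2 ± 2.10%, Slamf1-201 at 89.0 ± 2.92% and Ly9-202 at 80.1 ± 5.96% (SD, n = 4). Slamf1-202, which keeps an intron, held the rest of Slamf1, with 8.03%, 9.24%, 12.10% and 14.52% in libraries 1 to 4. Ly9-204, annotated as a target of nonsense-mediated decay, held 10.1 ± 1.89%. In Slamf6, Cd84 and Slamf7 no transcript held more than 44.0% on average.

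Slamf6 was a mixture of transcripts that differ in their last coding exons and in the number of switch motifs they hold. The gene is known to make several such ends in mice, the Ly108 isoforms. Slamf6-204 held 40.87%, 30.79%, 30.38% and 34.21% of the gene in libraries 1 to 4, and Slamf6-201 held 26.32%, 28.76%, 32.68% and 27.44%. Library 1 was the highest for Slamf6-204 and the lowest for Slamf6-201, and in library 3 Slamf6-201 was the higher of the pair. Slamf6-204 skips a 72-base exon, chr1:171941625-171941696 of mm10, and with it the second motif. After 909 shared coding bases the coding ends, with the motif in capitals, read:
Slamf6-201, chr1:171941625-171942592, plus strand, 87 coding bases with the intron left out: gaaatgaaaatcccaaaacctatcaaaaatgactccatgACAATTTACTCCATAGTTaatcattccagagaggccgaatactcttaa
Slamf6-204, chr1:171947999-171948073, plus strand, 75 coding bases: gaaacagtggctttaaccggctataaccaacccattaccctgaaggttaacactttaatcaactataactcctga

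Slamf6-207 joins the 72-base exon to the end of Slamf6-204 and so also holds 2 motifs; its share was 6.46 ± 0.35%. Coding transcripts with 2 motifs together held 35.3 ± 2.66% of Slamf6, the transcript with 1 motif, Slamf6-204, 34.1 ± 4.85%, and transcripts annotated as not protein-coding 29.6 ± 3.76%. The ratio of 2-motif to 1-motif transcripts was 0.81, 1.13, 1.29 and 0.99 in libraries 1 to 4, a mean of 1.06 ± 0.20, and 1.10 ± 0.17 in the table made from the reads. The balance depends on the unit. By expected counts the ratio was 3.77 ± 0.65, and Slamf6-201 led with 41.3%, against 17.2% for Slamf6-204. The annotated model of Slamf6-204 is 984 bases long and is all coding sequence, whereas those of Slamf6-201 and Slamf6-207 are 2485 and 5729 bases, so a read counts for more TPM in Slamf6-204.

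Cd84 was divided among 4 transcripts. Cd84-205 held 37.3 ± 3.17%, Cd84-203 26.0 ± 3.10%, Cd84-201 23.5 ± 5.53% and Cd84-204 13.0 ± 3.81% (SD, n = 4). Cd84-205 and Cd84-201 have the same 990 coding bases. Cd84-203 differs: its last exon runs on past the splice site that Cd84-205 uses, and its coding sequence leaves that of Cd84-205 after 379 bases, well before the motifs. Its own coding end, shown because it replaces both motifs, is 44 bases long:
Cd84-203, chr1:171852136-171852179, plus strand: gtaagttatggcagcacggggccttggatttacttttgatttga
The transcripts with 2 motifs held 77.5%, 73.7%, 73.4% and 70.7% of Cd84 in libraries 1 to 4, and Cd84-203 21.82%, 26.28%, 26.66% and 29.28%. By expected counts the share of Cd84-203 was 35.6 ± 4.11%, and in the table made from the reads 25.4 ± 3.24%.

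Slamf7 shares rest on few counts and varied most. Slamf7-201 held 55.14%, 36.88%, 45.04% and 39.05% in libraries 1 to 4, Slamf7-204 22.9 ± 7.96% and Slamf7-203 18.9 ± 5.39%. All 3 keep the motif, and Slamf7-201 and Slamf7-203 have the same coding sequence. Slamf7-205 held 38.64% in library 2, from 26.08 expected counts, 8.34% in library 4 and 0% in libraries 1 and 3. In the table made from the reads its share in library 2 was 12.6%. By expected counts Slamf7-203 led, with 45.3 ± 7.65%, against 25.7 ± 3.45% for Slamf7-201.

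**Figure D4:**
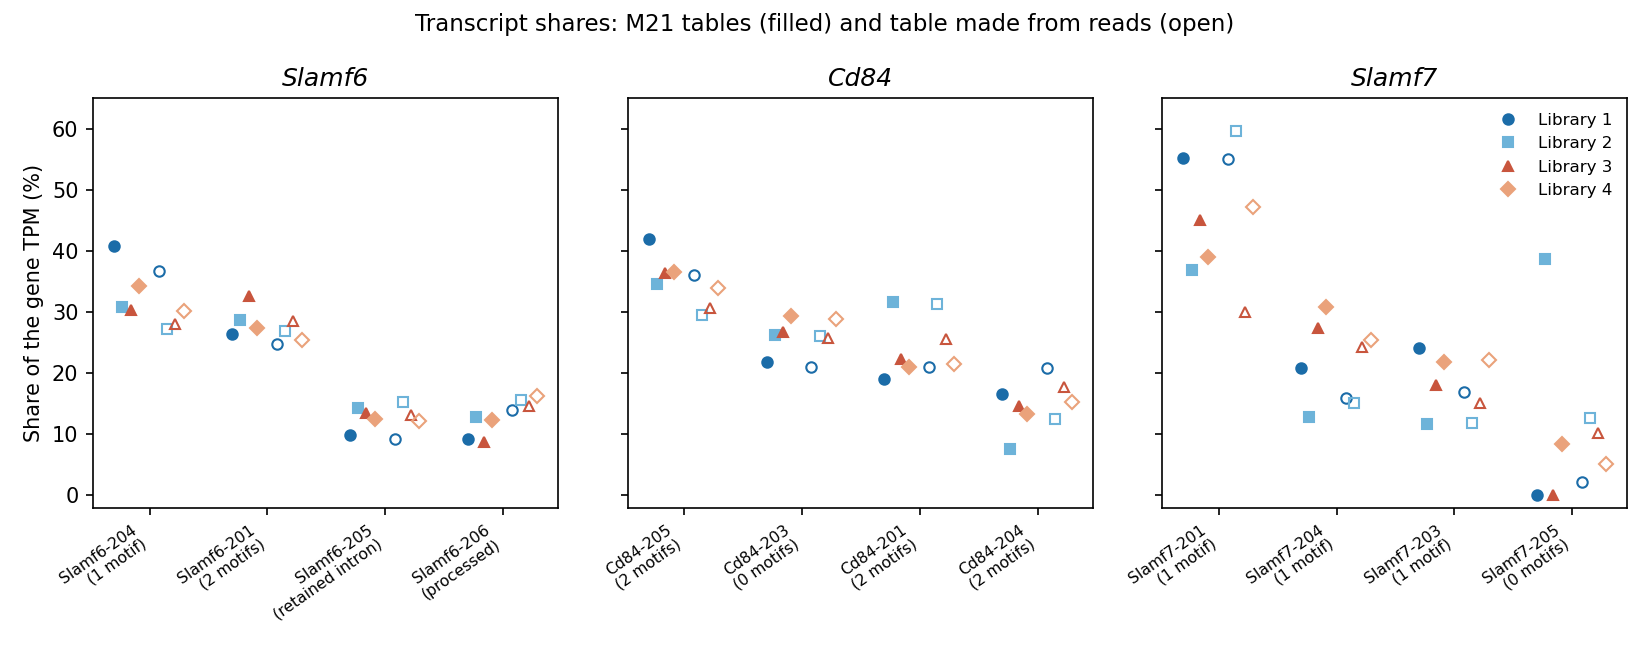
Share of the gene's TPM (%) held by transcripts of Slamf6, Cd84 and Slamf7 in libraries 1 to 4, from the M21 transcript tables (filled symbols) and the table made from the reads (open symbols); labels give the number of switch motifs or the annotated class. In the M21 tables Slamf6-204 spans 30.38% to 40.87% and Slamf6-201 spans 26.32% to 32.68%, so that they overlap, and Slamf7-205 reaches 38.64% in library 2 and 0% in libraries 1 and 3.

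The remaining relatives were close to 0. Slamf8 had a mean of 0.455 ± 0.279 TPM, Cd244a 0.408 ± 0.285 TPM and Slamf9 0.290 ± 0.227 TPM (SD, n = 4). Of the other adaptors of the SAP type, Sh2d1b1, which encodes the adaptor EAT-2 through which Slamf7 signals in natural killer cells, had 0.24, 0, 0 and 0.16 TPM. No expected count fell on Sh2d1b2 in any of the 4 libraries, and a count of 0 allows a level of up to 0.321 to 0.451 CPM (counts scaled to a common library total; 3 counts in each library, counting error only). None of the 5 reached a mean of 10 counts, so none was tested between libraries.

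Partners of SLAM signalling were expressed around the members. Of 26 listed genes, 24 reached 1 TPM and 20 reached 10 TPM in all libraries, with a list median of 60.7 ± 3.32 TPM, beside 194 TPM for the members and 18.02 TPM for all coding genes of at least 1 TPM. The 5 highest were the kinase gene Lck at 1449 ± 151 TPM, Cd2 at 1217 ± 83.1, the phosphatase gene Ptpn6 at 165 ± 51.1, the docking protein gene Dok2 at 157 ± 14.5 and Ncf4 at 129 ± 15.6. The 3 lowest were the kinase genes Fgr at 3.08 ± 0.484 and Src at 0.982 ± 0.262 and the phospholipase gene Plcg2 at 0.813 ± 0.843. Fyn, the kinase that SAP recruits, is outside that rule and was chosen after its values were seen. It stood at 45.80, 56.02, 100.77 and 76.42 TPM, with libraries 3 and 4 the higher ones, as for Sh2d1a, Slamf6 and Cd84. The share of all genes with this split was not counted. Between libraries 23 of the 26 were called, beside 68.4% of all genes, and Fgr, Src and Pak1 were not.

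Genes that SLAM and SAP signalling is known to act on, or that mark lineages that need it, were a list of 11. Of these 9 reached 1 TPM and 6 reached 10 TPM in all libraries, with a median of 19.5 ± 3.63 TPM. Genes of follicular T cells, which depend on SAP for help to B cells, stood at different levels. The cytokine gene Il21 was low, at 3.66 ± 2.18 TPM, and the lineage factor gene Bcl6 was at the list median, 19.5 ± 4.28 TPM. The 5 highest genes of the list were Icos at 242 ± 57.3 TPM, Pdcd1 at 214 ± 44.6 and Cxcr5 at 94.5 ± 21.7, with the lineage factor gene Gata3 at 96.5 ± 12.0 and Egr2 at 54.1 ± 13.7. The 3 lowest were Il21, Tbx21 at 2.26 ± 0.801 and Zbtb16, which encodes the natural killer T cell factor PLZF, at 0.12 TPM in library 1 and 0 in the other 3. Of 10 tested, 9 were called between libraries, beside 68.4% of all genes, and Ifng was not (adjusted p 0.838, edgeR).

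The genes whose pattern over the 4 libraries was most like each member were picked from 6867 protein-coding genes of at least 10 TPM, by the root mean square difference of centred log2(TPM + 0.1). For Ly9 they were Wars and Fam114a2, each at 0.029, and Fam114a2 had 112.81, 105.82, 64.10 and 65.03 TPM, high and low in the same libraries as Ly9. For Sh2d1a they were Akr1e1 and Smarca5, for Slamf6 Gng10 and H2afz, for Cd84 Xrn2 and Gcsh, for Cd48 Cox6b1 and Hnrnph3 and for Slamf7 Smpd2 and Slc35a4. With 4 libraries such likeness is common: 76 genes lay within 0.1 of Ly9, 143 within 0.1 of Sh2d1a and 1139 within 0.1 of Slamf1.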

How the data were processed

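Per the labels and the notes beside the files, each library had 4 deposited tables on mm10. The authors deposited an M21 gene table and an M21 transcript table with expected counts, TPM and, for transcripts, the percent of the gene's TPM, per the file headers. The same tables hold a posterior mean TPM with interval bounds, whose level the file headers do not give and which lie around the posterior mean, not around the TPM column. The authors also deposited estimated counts and TPM per transcript made from the reads, and, for GENCODE M4 genes, whole-number counts. Which programs made them is not given in the sources used here.

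Rows outside the annotation (0.133% to 0.504% of expected counts) entered neither library sizes nor tests. Expected counts were rounded to whole numbers and tested between libraries with edgeR 4.0.16 in R 4.3.3, as a likelihood ratio test at dispersion 0 with TMM scaling, for genes whose mean count reached 10, with Benjamini-Hochberg adjustment at 0.05; a quasi-likelihood test has no residual degrees of freedom with 1 library a level. Variation came from edgeR with an intercept-only design, and DESeq2 1.42.0 gave alternative size factors and dispersions. Tests were first checked on simulated data. M4 counts were matched by identifier for 22195 of 22457 genes and divided by M21 effective length. Motifs were searched in frame in M21 coding sequences, because protein sequences were not used here. Python 3.11.15 with pandas 2.3.3, numpy 2.4.6, scipy 1.17.1, statsmodels 0.14.6 and matplotlib 3.10.9 did the rest.

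The members and gene lists were chosen with earlier results of these data known. Genes named are the 7 members, the relatives, the 5 highest and 3 lowest of the partner and target lists, and the 2 genes most like each member; any other gene named was chosen after its values were seen. The genes most like Slamf1 are not reported here. Transcripts named hold a mean share of at least 10%, except Slamf6-207, which was chosen after its values were seen. Alternatives were other tables, scalings, filters and pseudocounts and leaving out each library. Counting limits cover counting error only.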

Additional observations from a re-analysis of the deposited data

Results flagged for a closer look

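Of 63 sets of 4 library values examined, 2 had a single library far from the other 3. Chance alone gives about 1 in 20, so this is no more than chance would give. The TPM of Slamf8 was 0.87 in library 2, from 10 expected counts, against 0.28, 0.30 and 0.37 in libraries 1, 3 and 4, from 3 counts each. The TPM of Zbtb16 was 0.12 in library 1 and 0 in the other 3, from a mean of only 0.5 expected counts a library.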

How the results depend on the processing

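No paired analysis was possible because the labels give 1 group. The median level of the 7 genes, 194 TPM, moved to 100.1 in the table made from the reads, 132 in length-scaled M4 counts, 155 as posterior mean TPM and 245 over coding genes alone, and lay between 189 and 198 with each library left out. The median of edgeR's biological coefficient of variation over the 7 genes, 14.8%, lay between 14.4% and 16.7% with a library left out, the highest without library 3. The mean share of the leading transcript, 67.7%, was 65.5% in the table made from the reads and 62.9% by expected counts. The partner list median, 60.7 TPM, was 34.7 in the table made from the reads and lay between 57.1, without library 1, and 62.7 with a library left out. Mean log2 ratios that reversed were Cd84 over Ly9 in M4 counts, at -0.082 ± 0.46, and 2 pairs with no length correction. These were Sh2d1a over Slamf6, at -0.997 ± 0.15, and Slamf6 over Cd84, at -0.024 ± 0.093. The ratios of Cd84 over Ly9 and Slamf6 over Cd84 lay within 1 SD of 0. Without length correction the length scaling was lost by construction, and the cause of the reversal in M4 counts was not tested. Of the values of single genes, pairs and transcripts, 168 kept their size and side, and 42 moved by more than the spread of the libraries. Calls between libraries were lost 8 times, for Slamf1 and Slamf7 only, and all 7 members were called with DESeq2 size factors, with no count filter and without library 3, beside 68.3%, 37.2% and 60.7% of all genes. The shares of Slamf7 rest on 74 to 145 counts a library.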

Other observations

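Markers of other cells that could be in the sample were mostly low. Beside the B cell list, 2 of 5 plasma cell markers reached 1 TPM in all libraries, led by Jchain at 52.3 ± 20.7 TPM (SD, n = 4), and 1 of 2 CD8 T cell markers did so. Of the monocyte and macrophage, dendritic cell, granulocyte and stem cell lists, 2 of 7, 1 of 7, 0 of 6 and 0 of 5 did so, with the granulocyte genes Ngp and Camp and the stem cell gene Gata2 at 0 counts in all 4 libraries. Of 8 red cell and platelet markers 1 did so, and Hba-a2, which encodes a haemoglobin chain, had 396, 0.67, 14.4 and 2.68 TPM in libraries 1 to 4.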
